A study of Rattus norvegicus with 12 samples.

Results

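The genes for the machinery that imports proteins into mitochondria and shapes the folds of the inner membrane were followed in oligodendrocyte precursor cells (OPCs) kept under mild hypoxia. They were taken by symbol: every gene named Tomm, Timm, Chchd or Micos with a number, every Apoo gene, and Immt, with rows marked as pseudogenes (-ps) left out. This gave 39 of the 30562 genes in the count table, and no symbol among them was repeated. Bulk RNA-seq had been done on primary cultures of wild-type rat OPCs, made from the cerebral cortex of P1 or P2 Sprague-Dawley rats and grown with FGF-2, PDGF-AA and B27. The 6 libraries of mild-hypo-OPCs came from cells held at 5% FiO2, and the 6 of standard OPCs from cells in room air. The labels give an exposure of 6 hours, whereas the methods of the study give 6 days. The study's legend for this experiment names fewer biological replicates per group than there are libraries, and the sources do not tie the libraries of a group to separate cultures. Every n given here counts libraries, so the p-values measure the spread between libraries, which may be technical.

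Most mitochondrial proteins are made in the cytosol and cross the outer membrane through the TOM complex. From there, the TIM23 complex takes proteins with a cleavable presequence into the matrix or the inner membrane, the small TIM chaperones guide carrier proteins across the intermembrane space to the TIM22 complex, and small cysteine-rich proteins are trapped by the Chchd4 oxidation pathway. MICOS is the inner membrane complex that holds the necks of the cristae, the folds that carry the respiratory chain, and OPCs draw on mitochondria as they mature into myelinating cells.

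Mild-hypo-OPC libraries held 4111669 to 9022324 counts and standard OPC libraries 1356079 to 2797513, so the depths of the groups did not overlap. Ribosomal RNA genes took 17.4% to 25.2% of all counts in the former and 23.9% to 38.4% in the latter. All 6 OPC lineage markers (Pdgfra, Cspg4, Olig1, Olig2, Sox10 and Gpr17) were detected in both groups, with a summed level of 3004 to 3328 CPM (counts relative to the scaled library size) in mild-hypo-OPCs and 2363 to 2788 CPM in standard OPCs after TMM scaling, which sets libraries to a common scale. By the same measure, astrocyte markers summed to 578 to 694 CPM against 498 to 581 CPM, neuron markers to 127 to 146 CPM against 71.3 to 111 CPM, and microglia markers to 38.1 to 53.5 CPM against 20.2 to 41.7 CPM. In the edgeR test given below, 1 of 6 OPC lineage, 2 of 4 tested astrocyte and 1 of 3 tested neuron markers were higher. Of 3 tested microglia markers, 1 was higher and 1 lower, and no other marker was called. Over all genes tested, 7.00% were higher and 17.0% lower. Endothelial markers stayed at or under 0.556 CPM with Tek and Cdh5 at 0, and mesenchymal markers stayed at or under 1.78 CPM with Lum at 0. The part of the other cell types and of ribosomal RNA in the results below was not tested. In bulk samples, fewer cells of a type and less RNA per cell cannot be told apart.

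After TMM scaling the import and cristae genes were lower in mild-hypo-OPCs, whereas scaling by library size only gave 9 lower and 7 higher. Of the 39 genes, 29 passed the filter on low counts (CPM above 10 in at least 1 library), and 20 of these fell and 0 rose in edgeR's quasi-likelihood test at a Benjamini-Hochberg adjusted p under 0.05. Over all 8938 genes tested, 17.0% fell and 7.00% rose. The median log2 fold change was -0.64 over the 29 genes and -0.00 over all genes, and 27 of the 29 values were negative. In 8 of the 29 genes every mild-hypo-OPC library lay below every standard OPC library, a pattern held by 5.40% of all genes tested, and in 0 of the 29 was it the other way round (2.94% of all genes). Of the 29 genes, 25 passed the filter in both groups and 4 (Apoo, Chchd6, Chchd7 and Timm10) only through standard OPC libraries, which by itself favours a lower value in mild-hypo-OPCs for these 4. The count of 0 higher genes was also 0 at an unadjusted p under 0.05, and was 0 with limma-voom (6.37% of all genes higher) and with DESeq2 (8.89%).

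The calls changed with the scaling and with a term for depth. Scaled by library size only, the median of all genes tested moved to 0.43 and their calls to 5515 higher and 405 lower, from 626 higher and 1520 lower, which is 61.7% and 4.53% of the genes tested, and the median of the import and cristae genes, at -0.21, stayed 0.64 below that of all genes. With the log2 total count as a further term in the model, 0 of the 20 genes kept the call (0.481% of all genes were lower in that fit), the lowest adjusted p was 0.629, the median fold change was -0.04, and the median standard error grew from 0.16 to 0.27. Since the depths of the groups did not overlap, an effect of condition and one of depth cannot be told apart. With every library thinned to the smallest total, 16 of the 20 genes remained lower (12.7% of all genes), with a median of -0.62.

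**Figure D1:**
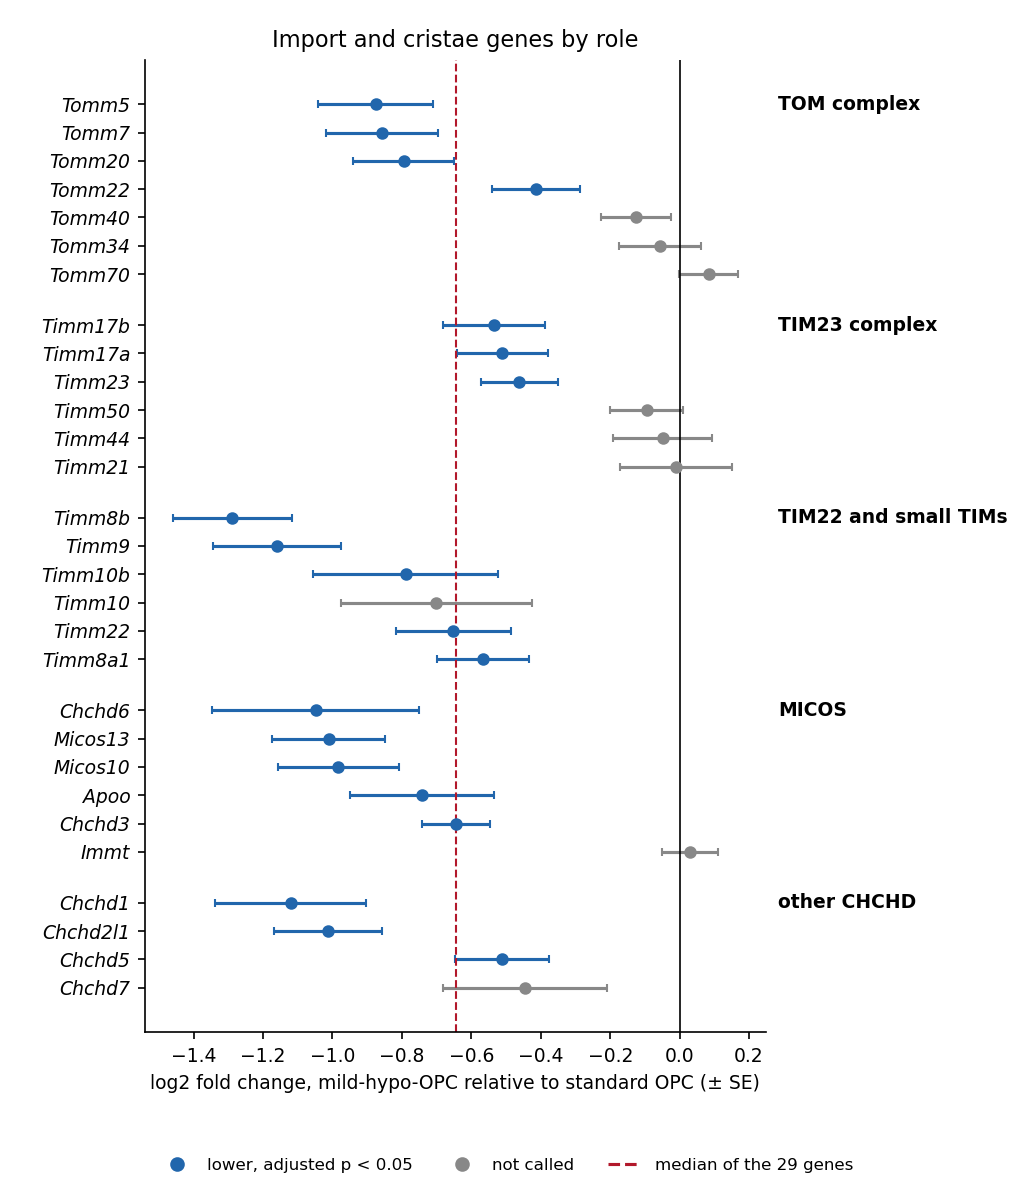
The log2 fold change (horizontal axis, mild-hypo-OPC relative to standard OPC, bars for the standard error) of the 29 tested import and cristae genes, grouped by role, with called genes in blue and the others in grey. In this TMM-scaled fit the 20 called genes all lie left of 0, from -1.29 for Timm8b to -0.41 for Tomm22, while Tomm70 and Immt lie just right of 0.

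The sequence before the start site was read for 34 of the 39 genes from RefSeq (build GRCr8). For Tomm22, Timm23 and Timm44 this sequence overlapped the gene itself, and they stayed in the counts below. Overlap is not given here for the genes that were not meant to be printed. The sequence was searched on both strands, over 250 bases, for 4 motifs. These were the NRF-1 type, GCGCNTGCGC, the ETS type, written CCGGAAG, the box bound by NF-Y, which reads CCAAT, and the core promoter box TATAAA. None of the 4 is contained in another, and a promoter was counted once per motif. CCGGAAG was found in 12 of the 34 promoters (35.3%), against 7.74% of all 27457 promoters and 17.4% of the 7076 promoters matched to tested genes. It was in 9 of the 19 lower genes with a promoter and in 2 of the 6 tested genes that were not called. The NRF-1 type was found in 4 of the 34 (11.8%), against 4.17% of all promoters and 11.1% of those of tested genes, with 2 of the 19 lower genes and 1 of the 6 not called. CCAAT was in 12 of the 34 (35.3%), against 34.3% of all promoters and 36.6% of those of tested genes, with 6 of the 19 lower genes and 4 of the 6 not called. TATAAA was in 3 of the 34 (8.82%), against 13.1% and 5.41%. A match is a description of letters and not a site.

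To show these letters, the last 150 bases before the start site are given for 3 genes that fell, the receptor gene Tomm20, the small subunit gene Tomm7 and the chaperone gene Timm8b, and for the pore gene Tomm40 and the presequence receptor gene Timm50, which were not called. Each runs 5′ to 3′ on the strand of the gene in GRCr8, with capitals marking a match to a motif on either strand. They lie at chr19:71832421-71832570 (minus strand), chr4:12197353-12197502 (plus), chr8:59850587-59850736 (plus), chr1:88498834-88498983 (minus) and chr1:92710312-92710461 (minus).
Tomm20: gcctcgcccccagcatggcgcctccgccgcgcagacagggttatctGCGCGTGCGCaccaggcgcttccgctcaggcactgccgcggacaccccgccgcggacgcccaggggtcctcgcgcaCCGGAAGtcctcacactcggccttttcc
Tomm7: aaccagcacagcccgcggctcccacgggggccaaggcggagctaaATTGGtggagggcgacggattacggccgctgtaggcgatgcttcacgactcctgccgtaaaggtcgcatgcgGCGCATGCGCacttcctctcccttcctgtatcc
Timm8b: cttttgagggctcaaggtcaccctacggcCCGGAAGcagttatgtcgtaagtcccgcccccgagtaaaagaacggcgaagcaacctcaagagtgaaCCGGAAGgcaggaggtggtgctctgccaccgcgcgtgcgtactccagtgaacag
Tomm40: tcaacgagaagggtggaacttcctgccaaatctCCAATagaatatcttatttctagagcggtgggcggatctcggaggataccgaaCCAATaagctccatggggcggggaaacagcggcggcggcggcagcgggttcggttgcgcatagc
Timm50: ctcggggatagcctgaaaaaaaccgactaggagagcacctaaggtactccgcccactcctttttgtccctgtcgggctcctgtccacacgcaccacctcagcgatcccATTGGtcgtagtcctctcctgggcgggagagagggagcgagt
Tomm20 held the NRF-1 type starting 104 bases before the start site and CCGGAAG at 28 bases. Tomm7 held the NRF-1 type at 33 bases and CCAAT at 105 bases, Timm8b held CCGGAAG at 121 and at 54 bases, Tomm40 held CCAAT at 117 and at 64 bases, and Timm50 held CCAAT at 42 bases. Tomm22, Timm23 and Timm44 were also meant to be printed, and were left out because of the overlap with the gene. In the motif counts they were kept. Tomm22 and Timm23 are among the 9 lower genes with CCGGAAG, and Timm44 is among the 4 genes with CCAAT that were not called. These matches may therefore lie within the gene. The printed genes do not show how the motifs divide by call. Tomm70 and Timm10, not called, held CCGGAAG, and Timm21, not called, held the NRF-1 type. The lower genes Chchd3, Chchd6, Timm17a, Timm17b and Timm8a1 held CCAAT.

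The TOM genes, grouped by symbol and so with the cytosolic Tomm34 among them, were divided. Of the 7 tested genes 4 fell and 3 (Tomm40, Tomm70 and Tomm34) were not called, with a median log2 fold change of -0.41, beside 17.0% lower over all genes tested. Tomm20 (ENSRNOG00000019980), the receptor that binds presequences, had a lowest, median and highest TMM-scaled level of 80.3, 95.7 and 117 CPM in mild-hypo-OPCs and of 114, 172 and 221 CPM in standard OPCs. The groups met only at the edge, with 1 mild-hypo-OPC library above the lowest standard OPC libraries. Its level averaged 95.1 ± 12.98 CPM in mild-hypo-OPCs and 166 ± 44.5 CPM in standard OPCs (SD, n = 6 libraries each), and the log2 fold change was -0.79 ± 0.14 (SE, edgeR adjusted p = 0.000637). Tomm5 (ENSRNOG00000062108), a small subunit bound to the pore, ranged from 19.6 over a median of 20.6 to 22.0 CPM in mild-hypo-OPCs and from 25.6 over 34.3 to 60.6 CPM in standard OPCs. The groups did not overlap, and the mild-hypo-OPC libraries were the most uniform of any of the 29 genes, with a coefficient of variation of 3.97%. The log2 fold change of Tomm5 was -0.88 ± 0.17 (adjusted p = 0.000857). Tomm7, another small subunit of the pore, fell by 0.86 on the log2 scale (adjusted p = 0.000855). Tomm22, the central receptor that holds the pores together, fell by 0.41 (adjusted p = 0.0227), but remained called in only 5 of the 12 fits without 1 library, and the sign turned with library size only, to 0.02.

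Tomm40 (ENSRNOG00000018556), the pore itself, had values of 38.9, 44.3 and 51.1 CPM (lowest, median, highest) in mild-hypo-OPCs and of 39.7, 49.8 and 55.3 CPM in standard OPCs. These ranges covered nearly the same span, and the log2 fold change of -0.13 ± 0.10 was not called (adjusted p = 0.394). Tomm70, the receptor for carrier proteins and a dock for cytosolic chaperones, had a log2 fold change of 0.08 (adjusted p = 0.505), with 45.3 to 57.6 CPM in standard OPCs and 50.1 to 60.2 CPM in mild-hypo-OPCs. Tomm34, a cytosolic protein that works with chaperones on precursors, had -0.06. With library size only, the log2 fold changes of Tomm40, Tomm34 and Tomm70 were 0.31, 0.37 and 0.52.

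In the TIM23 complex 3 of the 6 tested genes fell, with a median of -0.28, beside 17.0% lower over all genes tested. These 3 encode the channel in the inner membrane. Timm23 (ENSRNOG00000019811), a core subunit of that channel, had values of 71.9, 74.1 and 90.0 CPM in mild-hypo-OPCs and of 83.7, 101 and 137 CPM in standard OPCs. A single mild-hypo-OPC library reached into the range of standard OPCs. The mean was 76.9 ± 6.95 CPM against 107 ± 21.6 CPM, and the log2 fold change was -0.46 ± 0.11 (adjusted p = 0.00555). Timm17a and Timm17b, paralogues that form the channel with Timm23, fell by 0.51 (adjusted p = 0.00823) and 0.53 (adjusted p = 0.012) on the log2 scale. The genes for the subunits around the channel were not called: Timm50, the receptor on the intermembrane side, had a log2 fold change of -0.09, Timm44, the anchor of the import motor, had -0.05, and Timm21, which links TIM23 to the TOM complex, had -0.01. With library size only these 3 turned to 0.34, 0.39 and 0.42.

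The TIM22 complex and the small TIM chaperones held the genes with the largest decreases: 5 of 6 tested genes fell, with a median of -0.74, beside 17.0% lower over all genes tested. Timm8b (ENSRNOG00000009888), a small TIM of the intermembrane space, had values of 27.4, 35.1 and 39.7 CPM in mild-hypo-OPCs and of 50.1, 95.6 and 115 CPM in standard OPCs. All 6 mild-hypo-OPC libraries lay below all 6 standard OPC libraries. Its log2 fold change of -1.29 ± 0.17 (adjusted p = 0.000143) was the largest decrease of the 29 genes, and puts mild-hypo-OPCs at 40.9% of the standard level. Timm9 (ENSRNOG00000008222), the partner of Timm10 in the main small TIM chaperone, had 5.33, 7.61 and 9.06 CPM in mild-hypo-OPCs and 11.1, 16.9 and 21.3 CPM in standard OPCs. The groups did not overlap, and the log2 fold change was -1.16 ± 0.18 (adjusted p = 0.000266). Timm10, which had passed the filter only through standard OPC libraries, had a log2 fold change of -0.70 that did not pass the test (adjusted p = 0.0704). DESeq2 called it (adjusted p = 0.0435), as did 2 of the 12 fits without 1 library.

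Timm22 (ENSRNOG00000007988), the channel that inserts carrier proteins into the inner membrane, had 20.1, 23.4 and 26.8 CPM in mild-hypo-OPCs and 26.9, 35.1 and 60.0 CPM in standard OPCs. The groups lay next to each other with no overlap, the highest mild-hypo-OPC library being just under the lowest standard OPC library. The log2 fold change of Timm22 was -0.65 ± 0.17 (adjusted p = 0.00811). Timm8a1, the partner of Timm13 in the second small TIM chaperone, fell by 0.57 on the log2 scale (adjusted p = 0.00422). Timm10b, which docks the chaperones on the TIM22 complex, fell by 0.79 (adjusted p = 0.0368), but stayed called in only 3 of the 12 fits without 1 library. In RefSeq, the Timm8b, Timm9 and Tomm20 genes overlap Nkapd1, Kiaa0586 and Rbm34, and reads shared with these neighbours cannot be told apart, since the strand setting of the counting is not given in the sources used here.

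**Figure D2:**
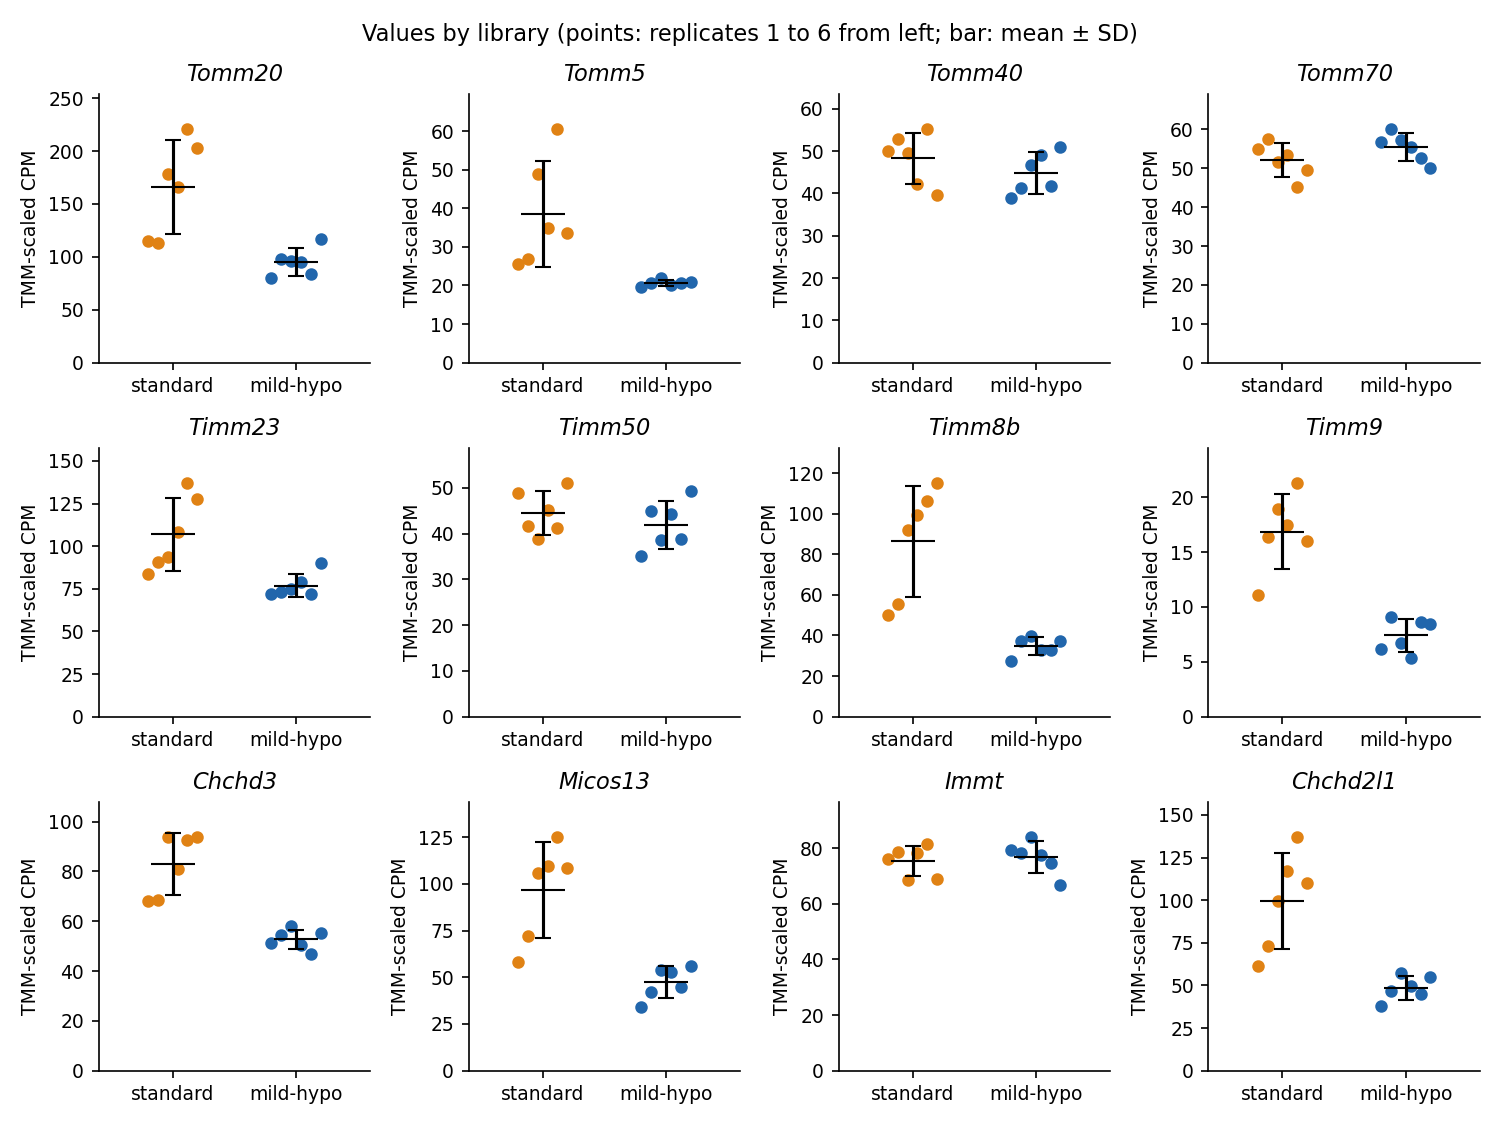
TMM-scaled CPM (vertical axes, from 0) of 12 genes in the 6 standard OPC libraries (orange) and the 6 mild-hypo-OPC libraries (blue), with bars for mean ± SD. Tomm5, Timm8b, Timm9, Chchd3, Micos13 and Chchd2l1 show no overlap between groups, whereas the points of Tomm40, Tomm70, Timm50 and Immt share 1 range.

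MICOS was lower in 5 of its 6 tested genes, with a median of -0.86, beside 17.0% lower over all genes tested. Of these 5, Apoo and Chchd6 had passed the filter only through standard OPC libraries, which by itself favours a lower value. The exception was the largest subunit of MICOS. Immt (ENSRNOG00000009097), also known as mitofilin and the scaffold of the complex, had 66.6, 78.0 and 84.1 CPM in mild-hypo-OPCs and 68.4, 77.2 and 81.3 CPM in standard OPCs. The ranges coincided and the medians were nearly equal. Its log2 fold change of 0.03 ± 0.08 was not called (adjusted p = 0.828), and was 0.46 with library size only. Micos13 (ENSRNOG00000046002), a small subunit that bridges the subcomplexes of MICOS, had 33.9, 48.8 and 56.2 CPM in mild-hypo-OPCs and 58.1, 107 and 125 CPM in standard OPCs. The groups did not overlap, and the log2 fold change was -1.01 ± 0.16 (adjusted p = 0.000275). Chchd3 (ENSRNOG00000013211), a subunit that binds Immt, had 47.0, 52.9 and 58.0 CPM in mild-hypo-OPCs and 68.1, 86.8 and 94.0 CPM in standard OPCs. These groups were apart as well, and the log2 fold change was -0.64 ± 0.10 (adjusted p = 0.000215).

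The other MICOS genes with a call were Micos10, which bends the membrane at the crista neck and fell by 0.98 on the log2 scale (adjusted p = 0.000526), Chchd6, the close relative of Chchd3, which fell by 1.05 (adjusted p = 0.0151), and Apoo, a lipid-binding subunit, which fell by 0.74 (adjusted p = 0.0133). The call for Apoo was lost without standard OPC replicate 3. Chchd6 was at 2.49 to 7.19 CPM in mild-hypo-OPCs and 3.82 to 16.0 CPM in standard OPCs, and its standard error of 0.30 was the widest of the 20 called genes.

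Among the other proteins with CHCH domains, 3 of 4 tested genes fell and the median was -0.76, beside 17.0% lower over all genes tested. Chchd2l1 (ENSRNOG00000065713), which RefSeq lists as Chchd2, a protein of the intermembrane space and nucleus, had 38.2, 48.1 and 57.1 CPM in mild-hypo-OPCs and 61.2, 105 and 137 CPM in standard OPCs. Every mild-hypo-OPC library was below every standard OPC library, and the log2 fold change was -1.01 ± 0.16 (adjusted p = 0.000227). Chchd1, a protein of the mitochondrial ribosome, fell by 1.12 (adjusted p = 0.00104). Chchd5 (ENSRNOG00000018491) had 10.4, 12.1 and 14.9 CPM in mild-hypo-OPCs and 16.7, 17.3 and 20.6 CPM in standard OPCs. The groups did not overlap, and Chchd5 was 1 of the few genes with a tighter spread in standard OPCs, where the coefficient of variation was 8.24%. Its log2 fold change was -0.51 ± 0.13 (adjusted p = 0.00958). Chchd7, which had passed the filter only through standard OPC libraries, had -0.45, which was not called (adjusted p = 0.181).

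Chchd4 (ENSRNOG00000069157), the oxidoreductase that traps cysteine-rich proteins in the intermembrane space and is itself a substrate of import, was among the 10 genes too low to test. Its counts per library were 16 to 41 in mild-hypo-OPCs, against 4 to 14 in standard OPCs. Scaled, this was 2.57, 3.70 and 4.28 CPM in mild-hypo-OPCs and 2.64, 3.79 and 9.92 CPM in standard OPCs, so the medians were alike and standard OPCs ranged higher. A row marked as its pseudogene, Chchd4-ps1, held more counts (282) than Chchd4 itself (188), and reads can be split between such copies. Timm13, the partner of Timm8a1, had 0 to 8 counts per library in mild-hypo-OPCs, against 2 to 12 in standard OPCs, which scaled to at most 1.47 CPM against at least 1.53 CPM. Although no Timm13 libraries of the groups overlapped, the evidence is 17 counts against 32, and with no filter (8.72% of all genes then lower) the adjusted p was 0.000421.

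Of the remaining 8, Tomm40l (6 to 45 counts per library over both groups), a paralogue of Tomm40, and Timm23b (10 to 46 counts), listed by RefSeq as a pseudogene, had the most. Apool, a MICOS subunit, had 0 to 30 counts, Chchd10, the relative of Chchd2, had 1 to 17, Chchd2l3 had 3 to 28 and Chchd2l2, which RefSeq lists as Zbed5, had 0 to 9. In the fit with no filter none of these 6 was called (adjusted p from 0.276 to 0.99). Tomm20l and Timm8a2 had 0 counts in all 12 libraries.

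Ratios of gene pairs in the same library do not depend on the scaling, so 10 pairs that share a complex or a family were set and 8 could be tested, the others holding a gene under the filter. In 4 of the 8 the log2 ratio differed between groups in a two-sided exact permutation test over libraries with Benjamini-Hochberg adjustment over the 8 pairs, where the smallest p the design allows is 0.00216. The receptor ratio Tomm20 to Tomm70 was 0.77 ± 0.24 in mild-hypo-OPCs and 1.63 ± 0.52 in standard OPCs (log2, SD, n = 6 each, exact p = 0.00649, adjusted p = 0.0173). Micos13 to Immt was -0.72 ± 0.33 against 0.31 ± 0.45 (exact p = 0.00433, adjusted p = 0.0173). Tomm7 to Tomm40 was -0.71 ± 0.08 against 0.03 ± 0.54 (exact p = 0.0108, adjusted p = 0.0216), though its adjusted p was 0.0519 without mild-hypo-OPC replicate 1 and also without replicate 4. In these 3 pairs the gene named before its partner was relatively lower in mild-hypo-OPCs, although the ranges of the groups overlapped. In each, standard OPC replicates 1 and 2 had the lowest ratios of their group. They were 1.07 and 0.98 (Tomm20 to Tomm70), -0.39 and -0.12 (Micos13 to Immt), and -0.73 and -0.43 (Tomm7 to Tomm40). The highest mild-hypo-OPC ratios were 1.22, -0.24 and -0.63 in the same order. Ratios do not remove the unequal depth, so condition and depth cannot be told apart here either.

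Timm8a1 to Timm8b was 1.27 ± 0.15 in mild-hypo-OPCs and 0.57 ± 0.20 in standard OPCs, with no overlap between the groups (exact p = 0.00216, adjusted p = 0.0173), so that Timm8b was lower relative to Timm8a1. The other 4 pairs did not pass the test. Timm17a to Timm17b differed by 0.09 (adjusted p = 0.916), Timm44 to Timm50 by 0.02 (adjusted p = 0.916), Timm9 to Timm10 by -0.49 (adjusted p = 0.222) and Chchd3 to Chchd6 by 0.35 (adjusted p = 0.439). A ratio shows unequal change and not which gene changed. The ratios use the same counts as the fit above, and the pairs come from genes chosen with earlier results of these data known. Their p-values are therefore not separate evidence. In each of the 4 called pairs the relatively lower gene had the shorter span in GRCr8, from first to last base. These were Tomm20 (9992 bases) beside Tomm70 (38466), Micos13 (2019) beside Immt (38714), Tomm7 (6842) beside Tomm40 (12089) and Timm8b (1381) beside Timm8a1 (4239). In Timm9 (12831) to Timm10 (3566), which was not called, the longer gene was relatively lower. The part of span in these ratios was not tested.

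**Figure D3:**
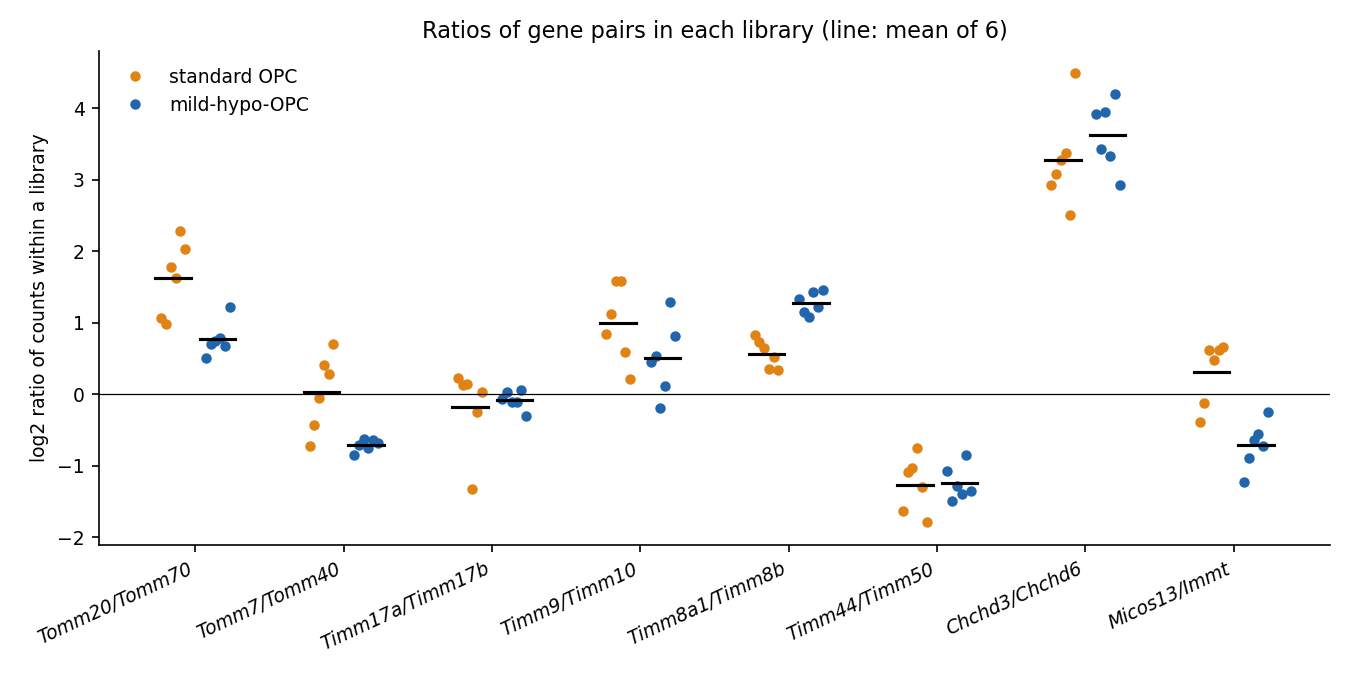
Log2 ratio of the counts of 8 gene pairs within each library (vertical axis) for standard OPCs (orange) and mild-hypo-OPCs (blue), with a line at the mean of 6. Timm8a1 to Timm8b does not overlap between groups, and the Timm44 to Timm50 ratios cover the same range.

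Genes of the same pathway that the symbols do not take were read from a fixed list of 36 partners, of which 32 were tested, 14 fell and 3 rose, with a median of -0.29, beside 17.0% lower and 7.00% higher over all genes tested. Pam16, a regulator of the import motor, fell by 1.48 on the log2 scale (adjusted p = 0.000143), further than any of the 29 genes, with 8.13 to 12.4 CPM in mild-hypo-OPCs and 16.1 to 43.3 CPM in standard OPCs and no overlap. Other parts of the motor and of matrix folding fell as well: the co-chaperonin Hspe1 by 0.85, the nucleotide exchange factor Grpel1 by 0.78, and the J proteins Dnajc19 and Dnajc15 by 0.72 and 0.69. The chaperones they serve were not called, Hspa9 (mtHsp70) having a log2 fold change of 0.09 and Hspd1 (Hsp60) of 0.16. Immp1l, an inner membrane peptidase, fell by 1.05, Romo1, a small protein bound to TIM23, by 0.64, the prohibitins Phb1 and Phb2 by 0.59 and 0.39, the prohibitin partner Stoml2 by 0.41, and the outer membrane insertase Mtch2 by 0.40.

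The 3 partners that rose, a share near that of all genes tested, were Pitrm1, which degrades cleaved presequences (log2 fold change 0.38, adjusted p = 0.0355), Atad3a, an inner membrane ATPase (0.36, adjusted p = 0.0259), and Letm1, an inner membrane protein of ion balance (0.35, adjusted p = 0.0382). Atad3a and Letm1 are named because the count is small, after their values were seen. These calls were fragile: 0 to 3 partners were called higher in the fits without 1 library, with 0 without standard OPC replicate 4 or 5, and 1 without standard OPC replicate 6 or mild-hypo-OPC replicate 5.

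Other groups of mitochondrial proteins made in the cytosol were also lower. The mitochondrial ribosomal proteins fell in 48 of 73 tested genes (median -0.51), complex I subunits and assembly factors in 34 of 42 (median -0.70), and subunits of cytochrome c oxidase and ATP synthase in 24 of 26 (median -0.68), with 0 higher in each at the same threshold. Over all genes tested, 17.0% were lower and 7.00% higher. Genes of the mitochondrial genome took 7.29% to 9.04% of the unscaled counts of mild-hypo-OPC libraries and 5.76% to 7.85% of those of standard OPC libraries, a share that is not comparable with the TMM-scaled fold changes. The import and cristae genes made up 0.0999% to 0.140% of the counts of mild-hypo-OPC libraries and 0.106% to 0.186% of those of standard OPC libraries, ranges that overlapped.

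Within each group the genes did not sit at 1 level. The TMM-scaled levels of the 29 genes summed to 922 to 1188 CPM in mild-hypo-OPCs (median 1060.1) and to 1229 to 2018 CPM in standard OPCs (median 1682). Standard OPC replicates 1 and 2, the deepest of their group with 2797513 and 2295080 counts, were the lowest with 1229 and 1258 CPM, and between them gave the lowest standard value for 17 of the 20 called genes. Mild-hypo-OPC replicate 1, the deepest library of all with 9022324 counts, had the lowest sum of its group (922 CPM) and the lowest value for 14 of the 20. The sums of replicates 4 to 6 of standard OPCs, the shallowest libraries, were 1697 to 2018 CPM. Not all libraries kept to this order. Standard OPC replicate 3, with 2240615 counts, close to the depth of replicate 2, summed to 1667 CPM. Mild-hypo-OPC replicate 3 (5474102 counts) summed to 1107 CPM, above replicate 4, the shallowest of its group (4111669 counts, 1073 CPM). The part of depth in these orders was not tested. Between libraries of a group the spread was wider in standard OPCs, where the coefficient of variation had a median of 26.5% over the 29 genes, than in mild-hypo-OPCs, where it was 13.5%, and it was wider in standard OPCs for 24 of the 29.

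**Figure D4:**
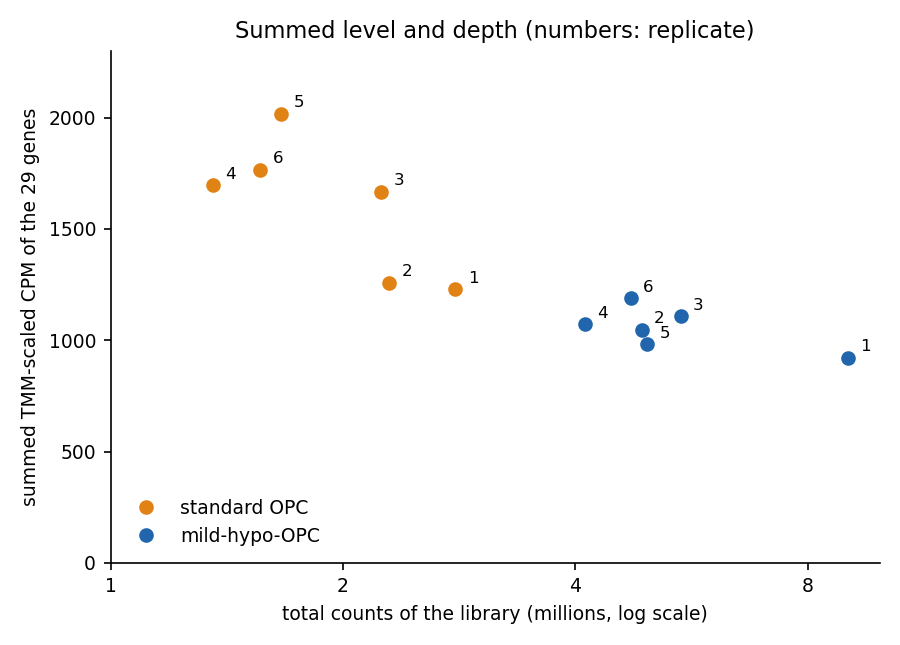
Summed TMM-scaled CPM of the 29 tested genes (vertical axis, from 0) against the total counts of each library (horizontal axis, log scale), with replicate numbers beside the points. Standard OPC replicates 1 and 2 lie at 1229 and 1258 CPM, near the highest mild-hypo-OPC value of 1188 CPM, and standard OPC replicate 5 is highest at 2018 CPM.

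When replicates 1 to 3 of each group were compared alone, 6 of 26 tested genes fell (4.01% of all genes did), with a median of -0.51, and with replicates 4 to 6 alone 18 of 29 fell (15.7% of all genes), with a median of -0.81. Standard OPC replicates 1 to 3 held 2240615 to 2797513 counts and replicates 4 to 6 held 1356079 to 1664627. Each of the 20 called genes that could be tested kept its negative sign in both sets of libraries. The difference between the sets was not tested.

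Fold changes were also set beside gene length. The span of a gene, from its first to its last base in GRCr8, had been matched for 95.59% of the genes tested and for all 29 import and cristae genes. Across these 29 genes the log2 fold change and the log2 span had a Pearson r of 0.229 and a Spearman rho of 0.331, and across the 8544 genes with a span r was 0.325 and rho 0.301. These are descriptions across genes of the same libraries, and genes are not independent replicates. Of all genes with a span of up to 2500 bases, 51.1% fell, with a median of -0.45, and the 3 import and cristae genes there, Timm8b, Chchd1 and Micos13, were all lower. Of all genes above 40000 bases, 5.9% fell, with a median of 0.06, and the 3 import and cristae genes there, Apoo, Chchd3 and Chchd6, were also all lower. Apoo and Chchd6 had passed the filter only through standard OPC libraries, which favours a lower value. Between these ends, 4 of 7 genes fell from 2500 to 5000 bases (median -0.57), 6 of 7 up to 10000 bases (median -0.65), 2 of 5 up to 20000 bases (median -0.13) and 2 of 4 up to 40000 bases (median -0.22), where 36.8%, 30.2%, 18.6% and 10.3% of all genes fell. The genes that were not called had spans from 3566 (Timm10) to 38714 bases (Immt). With the trend on span removed from every library, 17 of the 29 genes fell (14.4% of all genes did), with a median of -0.47, and the calls lost were Chchd5, Timm10b and Tomm22.

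**Figure D5:**
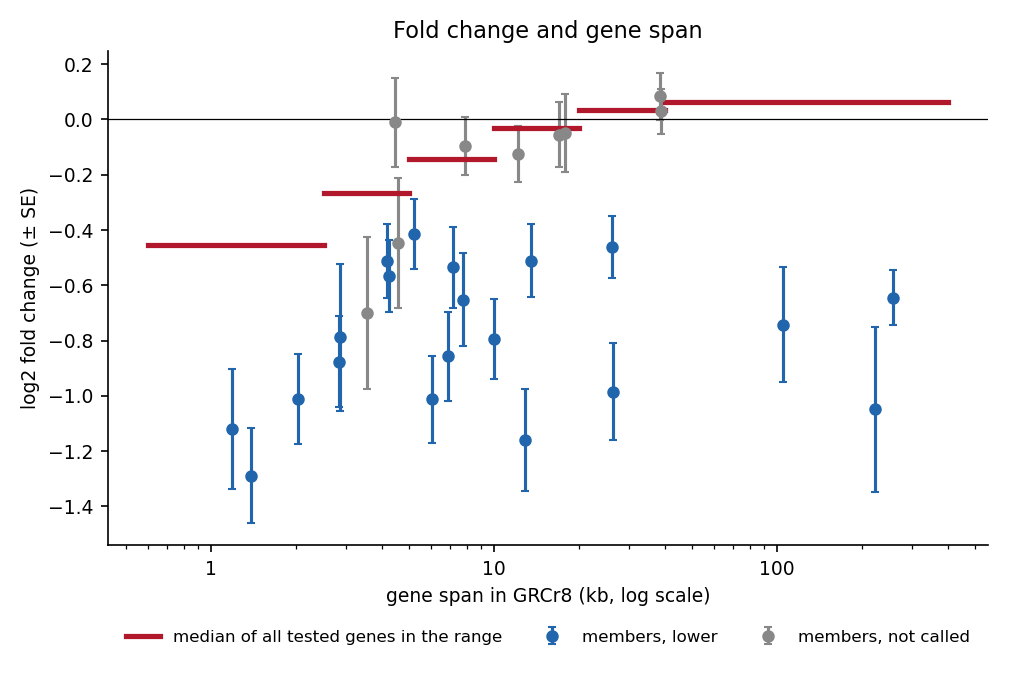
Log2 fold change (vertical axis, bars for the standard error) of the 29 genes against gene span (horizontal axis, log scale), with a red line at the median of all tested genes in each of 6 ranges of span. The red lines climb from -0.45 to 0.06, and all 3 genes above 40 kb lie between -0.64 and -1.05.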

How the data were processed

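RNA-seq libraries of rat OPCs, 6 mild-hypo-OPC and 6 standard OPC, were grouped by their labels. Total RNA (strand-specific kit) had been sequenced, and the submitters' processing notes name Trimmomatic 0.36, FastQC 0.11.9, STAR 2.7.9a, RSEM 1.3.3 and the build mRatBN7.2. The authors deposited raw counts for each Ensembl gene, as whole numbers. How RSEM estimates were made whole is not given in the sources used here, and 0 sample columns were left unused.

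The 2 groups were compared with edgeR 4.0.16 in R 4.3.3 (TMM, genes with CPM above 10 in at least 1 library, glmQLFit and glmQLFTest on condition, Benjamini-Hochberg adjustment over all genes tested, threshold 0.05). The standard error is the one implied by the F statistic. Pair ratios used counts plus 0.5 and a two-sided exact permutation test (Python 3.11.15, SciPy 1.17.1). Figures were drawn with matplotlib 3.10.9. The alternatives were limma-voom (limma 3.58.1, the test of the study), DESeq2 1.42.0, scaling by upper quartile or by library size only, 3 further filters on low counts, a replicate block, sets of replicates, leaving out each library, thinning, a depth covariate, removal of the trend on gene span, protein-coding genes only, and a prior count of 2 for ratios.

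The members and lists were chosen with earlier results of these data known. Every member is named. Values by library are given for Tomm20, Tomm40, Timm23, Immt and Chchd4 and for called members whose groups did not overlap (at most 12), and partners are named up to 12 by absolute log2 fold change. A table of protein lengths was not used here, so gene span in RefSeq GRCr8 took the place of the planned coding length. Summing repeated symbols was not run, since no member symbol was repeated. Tested on simulated counts with 200 of 8674 genes changed by 1 on the log2 scale, edgeR recovered 192 with 9 false calls among 201, limma-voom recovered 191 with 6 false among 197, and DESeq2 recovered 192 with 11 false among 203. The simulation kept the library totals but gave both groups the same profile apart from these genes, with as many raised as lowered. It held no wider shift between groups and no change linked to depth, so it cannot show how the tests behave under those. Depth sets the precision: the 29 genes tested held between 253 (Chchd6) and 5142 (Tomm20) counts over the 12 libraries.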

Additional observations from a re-analysis of the deposited data

Results flagged for a closer look

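In 58 sets of 6 libraries (29 genes in 2 groups), 2 genes had a library whose gap to its nearest neighbour, divided by the range of the group, was above Dixon's critical value at 95% for 6 libraries. Chance gives about 1 such library in 20 sets. Apoo was at 8.67 CPM in mild-hypo-OPC replicate 3, against 6.56 CPM in the next library (ratio 0.721). Chchd5 was at 20.6 CPM in standard OPC replicate 6, against 17.5 CPM in the next library (ratio 0.791). Both genes stayed called lower without that library.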

How the results depend on the processing

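Of the counts and medians for the import and cristae genes, none moved out of its range with limma-voom, DESeq2, upper-quartile scaling, the 3 other filters, thinning, removal of the trend on span or protein-coding genes only, and leaving out 1 library gave 17 to 21 lower genes (17 without standard OPC replicate 5). The replicate numbers did not pair the libraries: same-numbered libraries correlated from -0.276 to 0.296 in their deviations from group means, and 1 of 6 matched its own number best. With the number as a replicate block, edgeR called 20 of the 29 genes lower (median -0.64), 572 genes higher and 1471 lower, and 3 partners higher and 14 lower. A paired sign-flip permutation called 0 of 8 pair ratios (smallest p possible 0.0312), as did replicates 1 to 3 or 4 to 6 alone (smallest possible 0.1).

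Library size only gave 5515 higher and 405 lower genes (median 0.43), 7 higher and 9 lower import and cristae genes (median -0.21), and 12 higher and 4 lower partners (median 0.15). It turned the sign of Timm21 (0.42), Timm44 (0.39), Timm50 (0.34), Tomm22 (0.0226), Tomm34 (0.37) and Tomm40 (0.31), by construction through the shift of all genes. Upper-quartile scaling gave 1136 higher and 1255 lower genes. The depth covariate gave 0 higher and 43 lower genes, 0 lower import and cristae genes (median -0.0392, with 1 lower at an unadjusted p under 0.05 and the median over all genes at -0.01), and 0 higher and 0 lower partners (median -0.0843). It turned Micos13 (0.0201), Timm10b (0.84), Timm17b (0.11), Timm22 (0.0515), Timm23 (0.0380), Timm8a1 (0.12), Tomm22 (0.16) and Tomm7 (0.11), and the cause was not tested. Replicates 1 to 3 gave 53 higher and 343 lower genes, 6 lower import and cristae genes, and 0 higher and 3 lower partners. Thinning gave 385 higher genes and 1 higher partner, removal of the trend on span gave 878 higher and 1288 lower genes and a partner median of -0.16, and leaving out 1 library gave 0 to 3 higher partners; the causes were not tested. Unequal depth limits all of these results, and of the 8 genes under the filter that had counts, edgeR without the filter called only Timm13.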
